A study of Mus musculus with 8 samples.

Results

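Neutrophils of mice lacking the histamine H2 receptor (H2R) were set against wild-type neutrophils within the low-density population. The comparison uses 4 of the 8 libraries of the study, chosen by their labelled genotype and population, and describes them across all genes. The H2R-deficient libraries carry the numbers 1 and 2 and the wild-type libraries the numbers 2 and 4. All groups share the C57BL/6 background, an age of 2 months and casein, a milk protein used to draw neutrophils into the peritoneal cavity. The other 4 libraries hold the high-density neutrophils of the same genotypes, 2 each. How the H2R allele was made, which part of the gene it removes, the sex of the mice and how many of them gave each library are not stated in the labels, so p-values measure only the spread between libraries, which may be technical.

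H2R is a receptor for histamine that couples to the G protein Gs. Gs activates adenylyl cyclases, which make cyclic AMP, and cyclic AMP acts through protein kinase A on the transcription factor CREB and related proteins. In neutrophils a rise in cyclic AMP is known to restrain the oxidative burst, chemotaxis and adhesion. Low-density neutrophils are those that band with mononuclear cells on a density gradient, so lymphocytes, monocytes and dendritic cells are the cells most easily carried along with them.

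Each of the 8 libraries held 19862716 to 24199215 counts assigned to genes, and a floor of 3 counts corresponds to 0.083 to 0.121 CPM in the low-density libraries (a gene's counts scaled to a common library size). All CPM below are over library sizes scaled by TMM, a method that centres the typical gene. In all 4 low-density libraries the labelled cell type was borne out by abundant transcripts of neutrophils. S100a9, which encodes a calcium-binding protein of the neutrophil cytosol, stood at 7297 and 11595 CPM in the H2R-deficient libraries and at 12185 and 18015 CPM in wild type. B cell markers were also present in every low-density library, at a summed 281 to 1377 CPM. Xist had 8339 to 15146 counts per low-density library and the Y-linked genes Ddx3y, Eif2s3y, Kdm5d and Uty had 0 to 4, so the genotypes did not differ in those signs of sex. Mitochondrial transcripts made up 0.590% of the counts in both H2R-deficient libraries, against 0.387% and 0.284% in wild type.

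The low-density H2R-deficient libraries held more transcripts of B cells, MHC class II presentation, ribosomal proteins and DNA replication. Transcripts of mature neutrophils, macrophages and interleukin 17 type gamma-delta T cells were fewer in them. So were those of a list of eosinophil markers, most of whose summed level came from Cd300lf, a gene shared with neutrophils. B cell markers had a median log2 fold change of 1.39 and MHC class II genes of 1.08, whereas mature neutrophil genes had a median of -0.67 and eosinophil markers of -0.99. The median of all genes tested was 0.05. The lists were chosen with earlier results of these data known, so they are described and not tested. No single gene passed the test. Of 14909 genes, 0 (0%) had an adjusted p under 0.05 in edgeR's quasi-likelihood test with Benjamini-Hochberg adjustment. At an unadjusted p under 0.05 edgeR counted 3128 genes (21%), 1596 higher (10.7%) and 1532 lower (10.3%) in H2R-deficient libraries. The lowest edgeR adjusted p was 0.0868, and 12 genes (0.0805%) lay under 0.10.

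That count of 0 depended on the test and on the filter. DESeq2 called 870 of 10284 genes (8.46%), 367 higher (3.57%) and 503 lower (4.89%). Limma-voom called 8 genes (0.0537%), 4 in each direction. In edgeR without a filter on low counts 1360 genes passed, of which 1327 were among the 14909 tested with the filter. The prior degrees of freedom, which set how far a gene's own spread is replaced by the common trend, were estimated at 5.3 with the filter and as infinite without it. Without wild-type low-density library 2, edgeR called 63 genes, 29 higher and 34 lower. The lowest edgeR adjusted p was then 0.000942. It was 0.569 when wild-type library 4 was left out instead, 0.243 for H2R-deficient library 1 and 0.1 for H2R-deficient library 2, with 0 genes called each time. The genes and groups below are therefore given by their values, and 2 libraries against 2 cannot reach 0.05 in an exact test of a single value.

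On the main axis of variation the wild-type library numbered 2 lay between the other wild-type library and the H2R-deficient ones. This axis, the first principal component of log2 CPM of the 4 libraries, carried 55.7% of the variance. On it the H2R-deficient libraries stood at -33.3 and -37.2, wild-type library 2 at 9.59 and wild-type library 4 at 60.9. The second component (30.6%) split the H2R-deficient libraries 1 and 2, at 40.4 and -21.0. Wild-type libraries 2 and 4 stood there at -34.1 and 14.7. Across genes, log2 CPM of wild-type library 2 correlated with H2R-deficient library 2 at r = 0.980 and with wild-type library 4 at r = 0.974. The H2R-deficient libraries correlated with each other at r = 0.978. These correlations are over genes, which are not independent replicates. Both H2R-deficient libraries lay above both wild-type libraries in 4995 genes (33.5%) and below both in 3967 (26.6%), so 60.1% of genes showed no overlap. Wild-type library 4 was the farther of the wild-type libraries in 73.4% of the former and 68.3% of the latter. In the text below, "above" and "below" mean such a lack of overlap. With total counts in place of TMM the shares were 49% above and 14.5% below, and the median of all genes moved from 0.05 to 0.32, so directions are relative to that shift. List counts below are read against the shares of all genes, 33.5% above and 26.6% below, as description and not as a test.

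**Figure D1:**
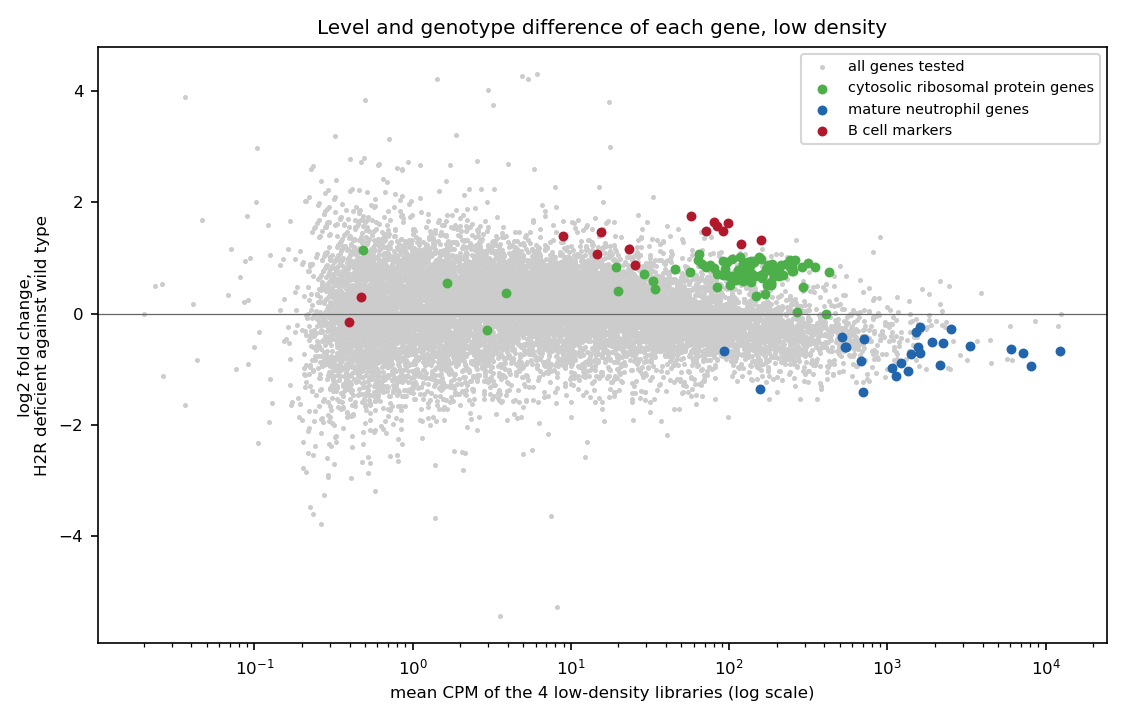
Each point is a gene, by its mean CPM in the 4 low-density libraries (horizontal, log scale) and its log2 fold change between H2R-deficient and wild-type libraries (vertical). B cell markers (red, median 1.39) and ribosomal protein genes (green, median 0.77) lie mostly above 0 and mature neutrophil genes (blue, median -0.67), which are more abundant, below 0.

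Transcripts of the targeted gene were lower in the H2R-deficient low-density libraries but not absent. Hrh2 (ENSMUSG00000034987) lies on chromosome 13 from 54192129 to 54236180 on the plus strand of GRCm38. Its level was 12.1 and 7.60 CPM in the H2R-deficient libraries and 22.5 and 32.5 CPM in wild type. The genotypes did not overlap, and the log2 fold change of -1.48 ± 0.55 (SE) did not pass (edgeR adjusted p = 0.196), although DESeq2 called it. Counts cover the whole gene, so reads from parts that the allele leaves in place may be included. Among the 81 genes tested within 5000000 bases of Hrh2, 33 were above and 19 below at low density. Only 4 of the 81 (4.94%) separated the genotypes in all 8 libraries of both densities, against 472 of all 14909 genes (3.17%). They were 4833439L19Rik, F12, B4galt7 and Hnrnpa0, and Hrh2 itself was not among them.

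Of 11 genes that make, move, break down or sense histamine, 5 passed the filter on low counts, and 4 of those were below and 0 above in H2R-deficient libraries. Over all genes 26.6% were below. With total counts 2 of the 5 were below and 0 above, and the median moved from -0.54 to -0.29. Hdc, the enzyme that makes histamine, stood at 1220.4 and 2033 CPM in the H2R-deficient libraries and at 2465 and 3946 CPM in wild type. Its log2 fold change was -0.98 ± 0.31 (edgeR adjusted p = 0.138), and DESeq2 called it. Slc18a2, a vesicular transporter of amines, stood at 3.19 and 4.52 CPM against 6.04 and 5.13 in wild type (-0.54 ± 0.26, edgeR adjusted p = 0.274). The histamine methyltransferase Hnmt was at 10.8 and 8.73 CPM against 11.4 and 11.2, a log2 fold change of -0.21 ± 0.25 that turned to 0.07 with total counts. Aldh7a1, an aldehyde dehydrogenase, overlapped between genotypes, at 4.60 and 3.36 CPM against 2.76 and 4.42. The other histamine receptor genes Hrh1, Hrh3 and Hrh4 were among the 6 members that the filter removed.

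Downstream of the receptor, the genes of the cyclic AMP pathway were split. Of 33 tested (cyclases, phosphodiesterases, protein kinase A subunits and CREB-family factors), 12 were above and 12 below, shares near those of all genes, and their median log2 fold change was 0.09. With total counts 16 were above and 8 below (median 0.37), and the median was -0.10 without wild-type library 2. The adenylyl cyclase gene Adcy4 was at 1.77 and 2.40 CPM in H2R-deficient libraries and 5.63 and 5.87 CPM in wild type (-1.46 ± 0.31, edgeR adjusted p = 0.104). Pde7b, a phosphodiesterase that degrades cyclic AMP, was at 23.1 and 38.5 CPM against 60.9 and 91.9 (-1.31 ± 0.34, edgeR adjusted p = 0.116). Gnas, which encodes the Gs alpha subunit itself, differed little, at 84.4 and 88.0 CPM against 69.6 and 75.8 (0.25 ± 0.16). Prkar1a, a regulatory subunit of protein kinase A, was at 194 and 252 CPM against 284 and 341 (-0.49 ± 0.20). Of 11 other receptors that couple to Gs, 2 were above and 4 below. They included the adenosine receptor Adora2a, at 48.9 and 55.9 CPM against 41.8 and 29.4, and the prostaglandin receptor Ptger2, at 29.1 and 37.2 CPM against 50.3 and 45.7.

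Genes that respond to cyclic AMP leaned lower, with 9 of 19 below and 1 above. With total counts 4 were below and 5 above, and their median turned from -0.23 to 0.05. The promoters below are shown because they hold the cyclic AMP response element TGACGTCA, the site that CREB binds, within 250 bases before to 50 after the annotated start. The site reads the same on both strands. It was present in 2 of 20 promoters of cyclic AMP responsive genes (10%), those of Dusp1 and Areg, in 2 of 27 promoters of immediate-early genes (7.41%), those of Dusp1 and Btg2, and in 588 of all 32851 promoters (1.79%). It was in 0 of 22 promoters of mature neutrophil genes and 0 of 15 of B cell markers. Sequences are from RefSeq (GRCm38.p6), 5′ to 3′ on the strand of the gene, with the element in capitals.
Dusp1 (chr17:26508548-26508675, minus strand, element from position -143): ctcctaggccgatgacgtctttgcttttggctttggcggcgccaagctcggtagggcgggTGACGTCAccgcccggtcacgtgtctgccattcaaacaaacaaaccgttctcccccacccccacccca
Areg (chr5:91139478-91139598, plus strand, element from position -61): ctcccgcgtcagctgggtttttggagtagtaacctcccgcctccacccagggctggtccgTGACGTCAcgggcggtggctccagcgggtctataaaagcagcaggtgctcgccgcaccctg
Btg2 (chr1:134079254-134079381, minus strand, element from position -166): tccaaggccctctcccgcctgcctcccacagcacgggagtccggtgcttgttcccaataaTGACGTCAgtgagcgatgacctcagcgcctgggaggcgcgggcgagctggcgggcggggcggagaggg

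The genes with the element differed in direction. Dusp1, a phosphatase that switches off MAP kinases, was at 1584 and 1329 CPM in the H2R-deficient libraries and at 1591 and 1740.0 CPM in wild type. Its log2 fold change of -0.19 ± 0.20 turned to 0.08 with total counts. Areg, an epidermal growth factor receptor ligand, was low, at 2.80 and 1.80 CPM in H2R-deficient libraries and 1.42 and 1.10 CPM in wild type. It was the responsive gene above without overlap (0.87 ± 0.39, edgeR adjusted p = 0.243). The antiproliferative gene Btg2 was at 211 and 249.5 CPM against 274 and 578 in wild type (-0.89 ± 0.38), a difference made mostly by wild-type library 4. Fosl2, an AP-1 subunit, was at 341 and 583 CPM against 813 and 1343 (-1.22 ± 0.34, edgeR adjusted p = 0.118). The clock gene Per1 was at 106 and 149 CPM against 212 and 246 (-0.84 ± 0.25). The nuclear receptor Nr4a1 was at 213 and 185 CPM against 283 and 332 (-0.63 ± 0.25). Immediate-early genes, which respond to stimulation and handling alike, were below in 9 of 28, near the 26.6% of all genes, and above in 3. With total counts 6 were below and 8 above, and the median turned from -0.17 to 0.10. Egr3 was at 12.2 and 15.5 CPM against 24.6 and 50.1 (-1.43 ± 0.39), whereas Myc was at 18.7 and 24.9 CPM against 13.5 and 14.3 (0.65 ± 0.23).

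Genes of mature neutrophils were lower in the H2R-deficient libraries as a group, with 24 of 26 below and 0 above. The counts are read against 26.6% of all genes below. Their summed level was 39361 and 55506 CPM in H2R-deficient and 64644 and 89037 CPM in wild-type libraries, and they took 5.87% and 7.45% of all counts against 8.03% and 9.91%. In bulk RNA, fewer cells of a type and less RNA per cell cannot be told apart. Cxcr2, the receptor for neutrophil chemokines, stood at 586 and 848 CPM against 1336 and 1770.0 in wild type (-1.12 ± 0.24, edgeR adjusted p = 0.107). Csf3r, the receptor for granulocyte colony-stimulating factor, stood at 897 and 873 CPM against 1605 and 2035 (-1.04 ± 0.29, edgeR adjusted p = 0.116). The decoy receptor for interleukin 1, Il1r2, was at 316 and 453 CPM against 795 and 1254 (-1.41 ± 0.26, edgeR adjusted p = 0.104). Ly6g, which encodes the antigen used to stain mouse neutrophils, was at 53.4 and 89.1 CPM against 101 and 126 (-0.67 ± 0.28). DESeq2 called 9 of the 26 lower, against 4.89% of all genes, and 0 higher. The median of -0.67 was -0.41 with total counts, -0.89 without wild-type library 2 and -0.49 without wild-type library 4.

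Granule genes differed by member. Of 13 early and primary granule genes tested, 3 were below and 0 above. Mpo, Elane, Ctsg and Ms4a3, the defining transcripts of promyelocytes, did not reach the filter. Of 16 specific granule genes 6 were below and 0 above, and the lactoferrin gene Ltf (188 and 335 CPM against 213 and 247) and Ngp (395 and 759 against 412 and 977) overlapped between genotypes. Mmp8, the neutrophil collagenase, was at 1014 and 1415 CPM against 1537 and 2435 (-0.71 ± 0.26). The specific granule median of -0.50 was -0.12 without wild-type library 4. Gelatinase granule and secretory vesicle genes were below in 11 of 15 and above in 1. Anxa1, an anti-inflammatory phospholipid-binding protein, was at 182 and 249.3 CPM against 359 and 745 (-1.36 ± 0.32, edgeR adjusted p = 0.108). The gelatinase Mmp9 was at 838 and 873 CPM against 1319 and 1848 (-0.89 ± 0.30).

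Adhesion genes and chemoattractant receptors of neutrophils were lower, while oxidase and trap genes divided. In the adhesion list 9 of 12 were below and 0 above. With total counts 7 were below and 2 above, and the median moved from -0.57 to -0.30. The integrin chain Itgax (CD11c) was at 35.5 and 41.1 CPM in H2R-deficient libraries and 88.0 and 99.4 CPM in wild type (-1.29 ± 0.17), and had the lowest edgeR adjusted p of the comparison, 0.0868, together with several other genes. Itgax is also a dendritic cell marker. Itgal, the alpha chain of LFA-1, was at 362 and 323 CPM against 601 and 800.0 (-1.03 ± 0.23). Chemoattractant receptors were below in 10 of 13 and above in 1, with the complement receptor C5ar1 at 425 and 584 CPM against 803 and 935 (-0.78 ± 0.23). With total counts 7 of these receptors were below and 1 above, and their median moved from -0.49 to -0.23. Padi4, which citrullinates histones in extracellular traps, was at 74.3 and 98.7 CPM against 156 and 205 (-1.06 ± 0.26). Over the 11 oxidase and trap genes 7 were below and 3 above, with a median of -0.18 that became 0.08 with total counts, where 4 were below and 4 above.

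**Figure D2:**
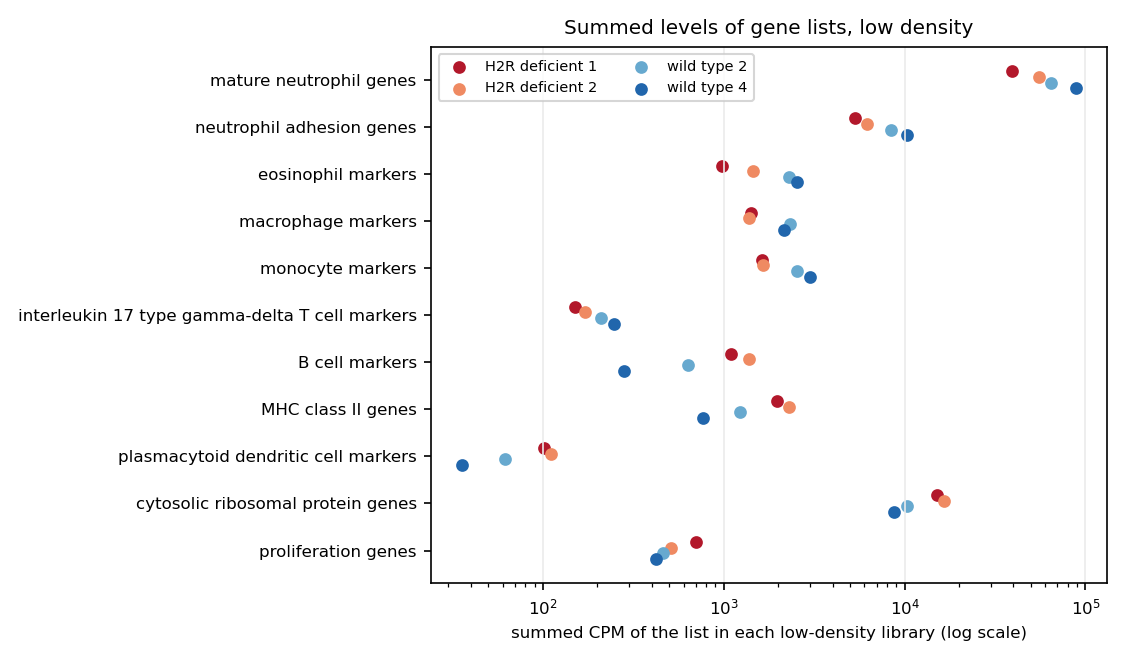
Summed CPM of gene lists in the 4 low-density libraries (log scale), H2R deficient in red and orange and wild type in blue. For the 6 upper lists, from mature neutrophil to gamma-delta T cell genes, both H2R-deficient libraries lie below both wild-type libraries, and for the 5 lower lists above them. Most of the eosinophil sum is Cd300lf, which neutrophils share.

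B cell transcripts were higher in both H2R-deficient libraries. Of 15 B cell markers 13 were above and 0 below, against 33.5% of all genes above, and DESeq2 called 11 of 13 higher, against 3.57% of all genes. Their summed level was 1104 and 1377 CPM in H2R-deficient and 634 and 281 CPM in wild-type libraries. The median log2 fold change of 1.39 was 2.13 without wild-type library 2 and 0.96 without wild-type library 4. Ms4a1, which encodes CD20, was at 138 and 161 CPM against 65.1 and 31.5 (1.63 ± 0.32, edgeR adjusted p = 0.104). The B cell receptor chain Cd79b was at 106 and 138 CPM against 53.3 and 25.1 (1.64 ± 0.37, edgeR adjusted p = 0.108). Pax5, the transcription factor that fixes B cell identity, was at 77.1 and 99.9 CPM against 39.0 and 13.2 (1.76 ± 0.44). Each of these had its lowest level in wild-type library 4.

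Immunoglobulin genes, taken as a class by their annotated type after their values were seen, leaned the same way, with 98 of 142 above, 2 below and a median of 1.37. Ighm, the heavy chain of IgM, was at 1321 and 1288 CPM in H2R-deficient libraries and 735 and 272 CPM in wild type (1.37 ± 0.40, edgeR adjusted p = 0.130). Ighd, the IgD heavy chain of naive follicular B cells, was at 9.70 and 13.8 CPM against 5.63 and 2.94 (1.46 ± 0.36). Among B-1 cell markers 6 of 9 were above and 2 below. Zbtb32 was at 22.5 and 23.3 CPM against 10.7 and 5.40 (1.5 ± 0.35), and Bhlhe41, a transcription factor of B-1 cells, at 18.2 and 18.8 CPM against 10.6 and 4.11 (1.33 ± 0.41). Plasma cell markers divided, 4 of 7 above and 2 below. Mzb1, a chaperone of B lineage cells, was at 38.9 and 37.4 CPM against 22.7 and 7.75 (1.33 ± 0.40), whereas Sdc1 (CD138) was at 7.45 and 10.2 CPM against 16.0 and 19.7 (-1.02 ± 0.34). Xbp1, which neutrophils and macrophages also express, was at 241 and 338 CPM against 531 and 692 (-1.08 ± 0.22).

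All 11 MHC class II genes were above, with log2 fold changes of 0.77 to 1.58, and DESeq2 called 8 of 10 higher (3.57% of all genes). Cd74, the invariant chain, was at 1021 and 1182 CPM in H2R-deficient libraries and 637 and 391 CPM in wild type (1.10 ± 0.26, edgeR adjusted p = 0.108). H2-Ab1, a class II beta chain, was at 248.6 and 285 CPM against 155 and 98.7 (1.07 ± 0.29). The peptide-loading gene H2-DMb2 was at 56.3 and 65.0 CPM against 27.2 and 13.4 (1.58 ± 0.29, edgeR adjusted p = 0.104), and the transactivator Ciita at 31.3 and 37.0 CPM against 21.7 and 11.3 (1.05 ± 0.29). B cells express all of these, and the B cell markers moved with them in the same libraries. The part of B cells in the class II difference was not tested. MHC class I and peptide-loading genes were above in 14 of 18 and below in 1, with a smaller median of 0.39. Among interferon-gamma induced GTPases 8 of 14 were above and 1 below. Gbp3 was at 40.4 and 39.7 CPM against 16.3 and 15 (1.36 ± 0.19, edgeR adjusted p = 0.0868), and limma-voom called it higher. Interferon-stimulated genes were above in 4 of 30 and below in 7, near the 26.6% of all genes. With total counts 10 were above and 5 below. Their median of -0.25 turned to 0.01 with total counts, 0.08 without H2R-deficient library 1 and 0.07 without wild-type library 4.

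Ribosomal protein genes were higher nearly throughout. Of 83 cytosolic members 80 were above and 1 below, and their summed level was 15084 and 16623 CPM in H2R-deficient and 10379 and 8783 CPM in wild-type libraries. DESeq2 called 70 of 83 higher (3.57% of all genes). Rpl10a was at 133 and 145 CPM against 78.7 and 62.2 (0.98 ± 0.21, edgeR adjusted p = 0.104), and Rpl15 at 94.8 and 101 CPM against 55.9 and 50.5 (0.88 ± 0.17, edgeR adjusted p = 0.104). The median of 0.77 was 0.91 without wild-type library 2 and 0.63 without wild-type library 4. Reads of these genes may be shared with processed pseudogenes. Mitochondrial ribosomal protein genes were above in 69 of 78 and below in 1 (median 0.52), and Mrpl12 was at 11.0 and 14.1 CPM against 7.13 and 5.29 (1.01 ± 0.24). Nuclear genes of oxidative phosphorylation were above in 52 of 81 and below in 3 (median 0.24). Of 10 mitochondrially encoded genes 8 were above, with mt-Cytb at 636 and 717 CPM against 460 and 391 (0.67 ± 0.31).

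Proliferation genes were above in 24 of 40 and below in 1. Mcm2, a subunit of the replicative helicase, was at 23.2 and 15.7 CPM against 9.08 and 6.85 (1.29 ± 0.35, edgeR adjusted p = 0.116), and Mcm7 at 28.0 and 20.5 CPM against 13.1 and 10.2 (1.06 ± 0.27). Top2a stood at 52.5 and 27.4 CPM against 26.8 and 18.8 (0.81 ± 0.36). Mki67, the classic marker of cycling cells, overlapped, at 116 and 93.5 CPM against 104 and 86.4 (0.14 ± 0.21). The median of 0.68 was 0.30 without H2R-deficient library 1, which held the highest level of each of these genes.

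Markers of eosinophils, macrophages and monocytes were lower. Eosinophil markers were below in 8 of 9 and above in 1, with a summed 981 and 1461 CPM in H2R-deficient and 2284 and 2536 CPM in wild-type libraries. The eosinophil peroxidase gene Epx and the granule gene Prg3 did not reach the filter, and Prg2, which encodes major basic protein, was at 0.443 and 0.46 CPM against 0.973 and 1.57. Siglecf, an eosinophil lectin also found on some tissue neutrophils, was at 5.32 and 7.32 CPM against 16.1 and 18.9 (-1.47 ± 0.21, edgeR adjusted p = 0.0868). Cd300lf, an inhibitory receptor shared with neutrophils, made up most of the sum, at 949.6 and 1421.5 CPM against 2234 and 2467. Il5ra, the interleukin 5 receptor that B-1 cells also carry, was the member above, at 12.9 and 13.6 CPM against 8.67 and 4.70 (0.99 ± 0.31).

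Macrophage markers were below in 14 of 17 and above in 0, summing to 1410.2 and 1382 CPM in H2R-deficient and 2322 and 2148 CPM in wild-type libraries. Cd163, the haemoglobin scavenger receptor, was at 1.72 and 2.19 CPM against 7.94 and 6.42 (-1.88 ± 0.31, edgeR adjusted p = 0.104), and the complement gene C1qa at 3.21 and 3.50 CPM against 8.23 and 6.34 (-1.12 ± 0.32). For both genes the wild-type libraries lay close together, and the median of the list, -0.70, was -0.66 without wild-type library 2 and -0.70 without library 4. Of the 17, 5 (29.4%) separated the genotypes in all 8 libraries, among them C1qa, Cd163, Apoe and Trem2, each lower in H2R-deficient libraries. Over all genes 1.74% did so in that direction. Among the gene lists only this one was counted in this way. Its members were chosen with earlier results of these data known, so the share is description and not a test. Markers of large peritoneal macrophages were less one-sided, with 6 of 13 below, 2 above and 5 overlapping. Their summed level overlapped, at 11391 and 13848 CPM against 11865 and 17506, and their median of -0.45 was -0.16 with total counts. Monocyte markers were below in 9 of 13 and above in 0, and Cx3cr1 was at 0.36 and 0.283 CPM against 1.46 and 0.705 (-1.72 ± 0.49).

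Lymphoid and dendritic lists differed in direction from one another. Interleukin 17 type gamma-delta T cell markers were below in 12 of 15 and above in 2, with Cd163l1, a scavenger receptor of those cells, at 14 and 16.9 CPM against 34.1 and 46.8 (-1.39 ± 0.21, edgeR adjusted p = 0.104). General T cell markers were below in 7 of 20 and above in 4, and with total counts 6 were below and 6 above. Cd2, which B cells of the mouse also express, was at 29.2 and 30.4 CPM against 15.6 and 7.44 (1.37 ± 0.39). NK and cytotoxic lymphocyte markers were above in 11 of 16 and below in 0, at low levels. Ccl5 was at 20.8 and 27.5 CPM against 19.0 and 8.22 (0.82 ± 0.35). Mature dendritic cell markers were above in 10 of 16 and below in 1, and conventional dendritic cell markers above in 4 of 14 and below in 5. Mast cell and basophil markers overlapped in 6 of 9 and were below in 3. Plasmacytoid dendritic cell markers were above in 5 of 6, but Siglech, the defining marker, did not reach the filter, and Ly6d and Tcf4 of that list are also B lineage genes. Erythroid markers summed to at most 1.49 CPM in any low-density library. Mesothelial and stromal markers overlapped in 14 of 14, with 343 and 101 CPM in H2R-deficient and 99.9 and 343 CPM in wild-type libraries. What part these cell types have in the differences of other genes was not tested.

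**Figure D3:**
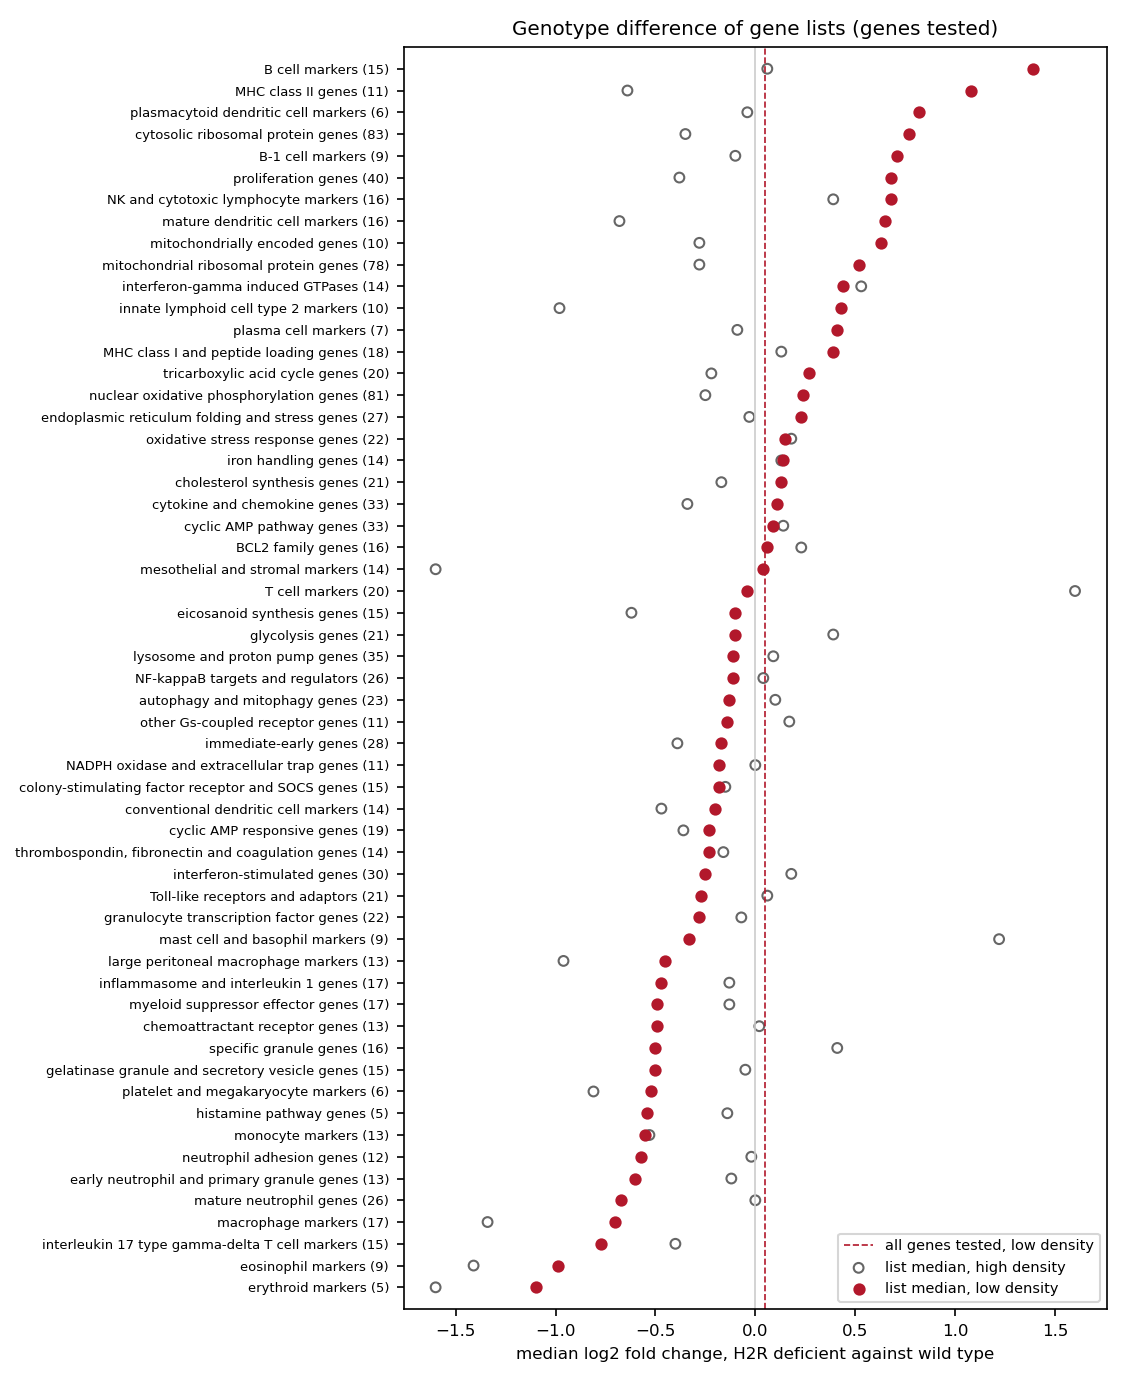
Median log2 fold change of each gene list between H2R-deficient and wild-type libraries at low density (red) and at high density (open circles), ordered by the low-density median, with the number of genes tested in brackets. B cell and MHC class II genes (1.39 and 1.08) stand at the top at low density, where their high-density medians are 0.06 and -0.64, and eosinophil markers are low at both (-0.99 and -1.41).

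Receptors and signalling genes of inflammation divided by member. Toll-like receptors and adaptors were below in 12 of 21 and above in 4, with Tlr13 at 506 and 519 CPM against 852 and 728 (-0.63 ± 0.17). With total counts 8 of that list were below and 4 above, and its median moved from -0.27 to -0.01. Inflammasome and interleukin 1 genes were below in 10 of 17 and above in 4. With total counts 5 were below and 5 above, and their median moved from -0.47 to -0.20. Il18rap, a chain of the interleukin 18 receptor, was at 118 and 182 CPM against 335 and 407 (-1.31 ± 0.24, edgeR adjusted p = 0.104). Among the cytokines, Il1b was at 1801 and 1911 CPM against 2003 and 3343 (-0.53 ± 0.31), without overlap, Cxcl2 at 7995 and 8530.0 CPM against 8504 and 9522 (-0.13 ± 0.19), and Tnf overlapped at 982 and 759 CPM against 768 and 966. Over 33 cytokine and chemokine genes 13 were above and 9 below, with a median of 0.11, and DESeq2 called 1 higher. With total counts 17 of them were above and 4 below. Among NF-κB targets 10 of 26 were below and 3 above. With total counts the tally turned to 3 below and 12 above, and their median of -0.11 became 0.17.

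Of the metabolic and stress lists, endoplasmic reticulum folding genes were above in 15 of 27 and below in 6. Pdia4, a disulphide isomerase of the secretory pathway, was at 149 and 135 CPM against 75.3 and 63.3 (1.04 ± 0.19, edgeR adjusted p = 0.104). Glycolysis genes were below in 9 of 21 and above in 0, with the regulator Pfkfb4 at 42.3 and 43.4 CPM against 74.2 and 89.9 (-0.94 ± 0.26). The median of -0.10 for glycolysis became 0.15 with total counts. Scd1, the desaturase that makes monounsaturated fatty acids, was at 53.7 and 54.7 CPM against 23.7 and 20.4 (1.30 ± 0.18, edgeR adjusted p = 0.0868). Soat2, which esterifies cholesterol, was at 8.09 and 12.6 CPM against 34.1 and 43.8 (-1.92 ± 0.25, edgeR adjusted p = 0.0868). Both were also called by limma-voom, as were Itgax and the pseudokinase Peak1, at 26.9 and 26.5 CPM against 61.2 and 64.8 (-1.24 ± 0.16).

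The largest differences among abundant, non-overlapping genes were chosen after it was seen that none passed, as the 15 highest and 15 lowest log2 fold changes among 1131 and 1056 genes with an unadjusted edgeR p under 0.05. The choice left out predicted, clone, pseudogene, antigen receptor, mitochondrial, ribosomal protein and histone names. Genes left out for their names include Ighg3 (2.99 ± 0.75), Iglc2 (2.10 ± 0.36), Igkv3-10 (4.23 ± 0.80), Gm37347 (-2.19 ± 0.25) and Gm16894 (-1.86 ± 0.26). B lineage genes were frequent among the highest, with Ly6d, Pax5, Tnfrsf13c, Cd79b and Ms4a1. Tnfrsf13c, the receptor for the B cell survival factor BAFF, was at 17.2 and 16.5 CPM against 7.17 and 3.33 (1.68 ± 0.39). The highest of the 15 was Cacna1i, a calcium channel subunit, at 26.4 and 24.6 CPM against 9.32 and 3.41 (2.00 ± 0.41, edgeR adjusted p = 0.104). Among the lowest, Cd101, an inhibitory receptor of mature neutrophils, was at 2.96 and 4.10 CPM against 20.2 and 21.8 (-2.58 ± 0.66, edgeR adjusted p = 0.117). Cd244a, an NK cell and myeloid receptor, was at 12.4 and 18.4 CPM against 43.4 and 74.8 (-1.94 ± 0.28, edgeR adjusted p = 0.0868). Alox15, the lipoxygenase of eosinophils and resident macrophages, was at 2.30 and 2.83 CPM against 5.55 and 14.4 (-1.97 ± 0.41). Some of the lowest rested on wild-type library 4 alone. Ltbp1 was at 13.6 CPM there and at 0.141 to 0.405 in the other 3 libraries, the steroidogenic enzyme Cyp11a1 at 31.1 against 0.389 to 0.689, and Rfx2 at 14.9 against 1.03 to 2.11.

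**Figure D4:**
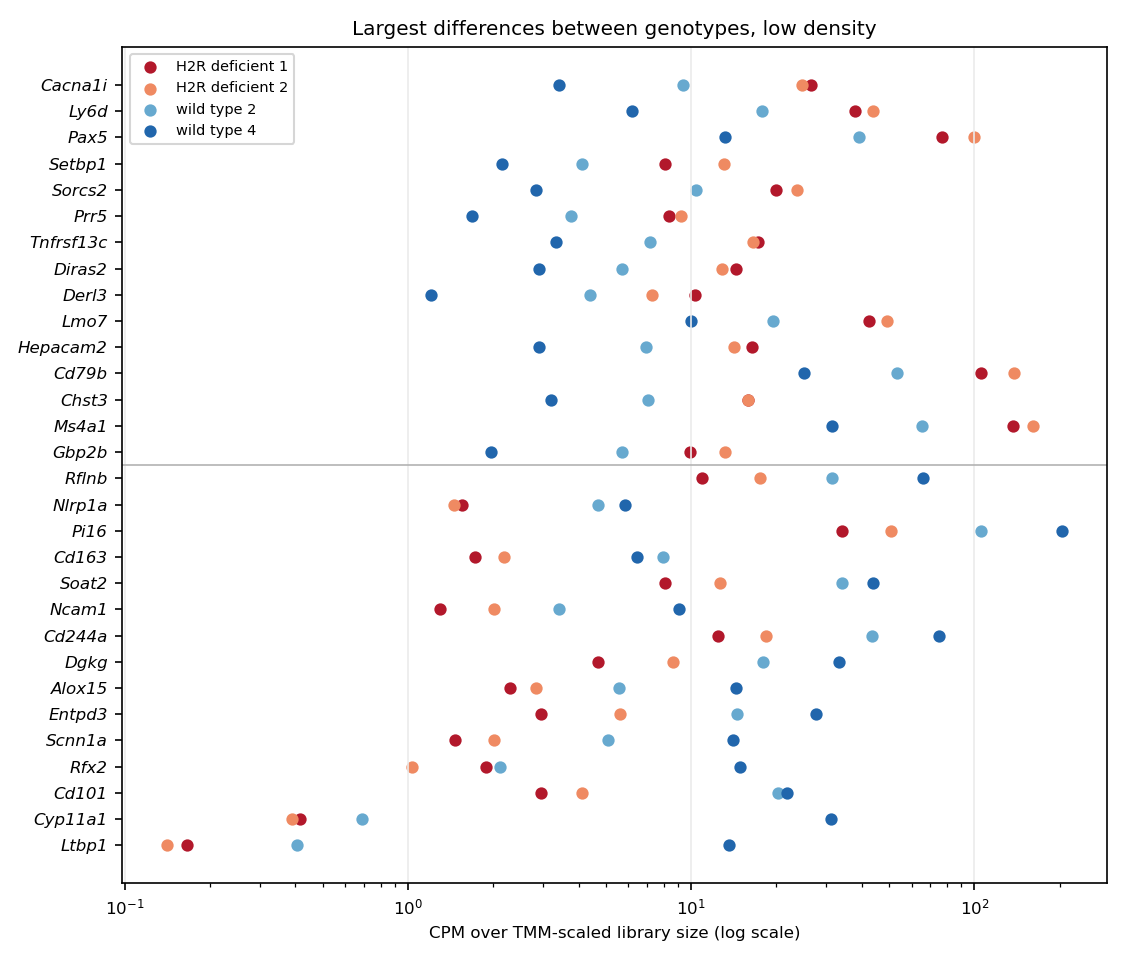
CPM (log scale) in each low-density library for the 15 highest (upper) and 15 lowest (lower) log2 fold changes among non-overlapping genes with at least 5 CPM in either group, leaving out antigen receptor, ribosomal protein, histone, mitochondrial, pseudogene, clone and predicted names. In most of the upper genes wild-type library 4 is lowest and wild-type library 2 lies between, and Ltbp1, Cyp11a1 and Rfx2 are high in wild-type library 4 only.

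The same genotypes in the high-density population gave another set of values, from other libraries. There 31 genes passed (0.208%), 3 higher (0.0201%) and 28 lower (0.188%) in edgeR with adjustment over all genes. These calls used a spread estimated over all 8 libraries, the low-density ones included. With the 4 high-density libraries alone 0 genes passed. Of the 28 lower, 17 were also below at low density, where 26.6% of all genes were, and of the 3 higher 0 were above. Siglecf passed at high density, at 14.1 and 12.8 CPM in H2R-deficient and 38.8 and 32.7 CPM in wild-type libraries (-1.41 ± 0.21, edgeR adjusted p = 0.0458). Selenop, a selenium carrier of macrophages, passed there too (-1.73, edgeR adjusted p = 0.0374) and at low density was at 12.6 and 12.4 CPM against 38.3 and 34.5 (-1.54 ± 0.24, edgeR adjusted p = 0.104). The high-density log2 fold change of Cd101 was -3.22 ± 0.66 (edgeR adjusted p = 0.0984) and that of Alox15 -1.89 ± 0.42. Cd101 was at 8.41 and 10.3 CPM in H2R-deficient and 144.8 and 30.4 CPM in wild-type high-density libraries. Wild-type high-density library 2 thus made much of the Cd101 difference. Both densities carry the same library numbers, so their libraries may come from the same mice.

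Whether the genotype difference itself differed between densities was tested by the interaction. No gene passed (0%; lowest edgeR adjusted p = 0.0906), while 3150 genes (21.1%) had an unadjusted p under 0.05 and 732 (4.91%) an adjusted p under 0.10. DESeq2 called 946 of 10573 (8.95%), limma-voom called 0, edgeR without TMM factors called 635 (622 higher and 13 lower) and edgeR without a filter called 1210. Ms4a1 was at 8.23 and 11.5 CPM in H2R-deficient and 9.84 and 10.5 CPM in wild-type high-density libraries, and its difference between densities was 1.67 ± 0.46 (edgeR adjusted p = 0.101). For Cxcr2 it was -1.37 ± 0.34 (edgeR adjusted p = 0.0931), with a high-density log2 fold change of 0.25. Rpl10a had a difference of 1.51 ± 0.29 (edgeR adjusted p = 0.0906) and Scd1 of 1.72 ± 0.27 (edgeR adjusted p = 0.0906). For Siglecf it was -0.06 ± 0.30 (edgeR adjusted p = 0.926) and for Hrh2 0.12 ± 0.76 (edgeR adjusted p = 0.950).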

How the data were processed

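Libraries of low-density and high-density peritoneal neutrophils were sequenced, 2 per genotype and density. Per the file headers, the authors deposited raw counts of reads for each gene. Tools listed by the submitters' processing notes are STAR 2.5.2b, Trimmomatic 0.36, bcl2fastq 2.17.1.14 and Subread 1.5.2 with featureCounts, on GRCm38. Strand and multi-mapping settings are not given in the sources used. Of 49315 identifiers 49056 matched a symbol in GENCODE M21.

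Counts were filtered by filterByExpr, scaled by TMM and fitted in 1 quasi-likelihood model over all 8 libraries (edgeR 4.0.16, R 4.3.3), with Benjamini-Hochberg adjustment over 14909 genes. DESeq2 1.42.0, limma-voom (limma 3.58.1), other scalings and filters and left-out libraries were alternatives. The scripts were tested on simulated counts drawn with edgeR's own estimates of spread, so those counts cannot rank the tools on the real libraries. Members and the 57 gene lists were chosen with earlier results of these data known. The naming rule asked for called genes. As none passed, the 15 highest and 15 lowest log2 fold changes were named among genes with an unadjusted p under 0.05, a mean of at least 5 CPM in either group and no overlap, with genes of adjusted p under 0.10 (both without predicted, clone, pseudogene, antigen receptor, mitochondrial, ribosomal protein or histone names), up to 4 members of each list by lowest adjusted p, and the histamine genes. Other genes named were chosen after their values were seen. Between same-group libraries, counts differed by more than sampling noise (chi-square per degree of freedom 25.9 and 22.7 at low density). Counting floors cover counting error only. Results for some list members are not reported here.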

Additional observations from a re-analysis of the deposited data

How the results depend on the processing

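The number of genes differing by genotype at low density, 0 with the settings reported, was 1360 without a filter on low counts, 870 with DESeq2, 8 with limma-voom and 8 with limma-voom and a replicate block. It stayed at 0 with DESeq2 size factors, upper-quartile factors, total counts, a filter of 10 counts, the 4 low-density libraries alone and edgeR's newer dispersion method, which was added after the data were seen. Leaving out 1 library at a time gave 0 to 63, with 63 without wild-type low-density library 2 and 2 each without wild-type high-density library 2 or 4. The difference between densities moved from 0 genes to 635 with total counts, 1210 without a filter and 946 with DESeq2, and to between 0 and 3 with 1 library left out, the 3 being without wild-type high-density library 2. At high density the 31 genes became 73 with total counts, 1095 without a filter, 677 with DESeq2, 3 with limma-voom, 3 with limma-voom and a replicate block, 10 with the newer dispersion method, 0 with the 4 high-density libraries alone and 0 to 34 with 1 library left out. Of the counts without a filter, 1327, 1203 and 1087 lay among the 14909 genes, and the prior degrees of freedom went from 5.3 to infinite. For the other settings the cause was not tested.

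No paired analysis was possible because the low-density genotypes share only the number 2. The block used instead was genotype with number across densities (consensus correlation 0.058), where same-numbered libraries deviated together at 0.33 in H2R-deficient and 0.15 in wild-type mice.

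Signs turned for few named genes. Hnmt was 0.07 and Dusp1 0.08 with total counts. With 1 library left out, Aldh7a1 ranged from -0.15 to 0.51, Fcer1a from -1.59 to 0.44, Hba-a1 from -5.63 to 0.04, Hba-a2 from -4.20 to 0.09, Krt18 from -1.65 to 0.27, Pdgfra from -1.47 to 2.62 and Col1a1 from -0.79 to 1.25. Of 1026 recomputed list medians 30 took the other sign, 14 of them with total counts, and none of these 30 was of a list whose median lay beyond 0.5 on the log2 scale.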

Other observations

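Further lists are given by their values, and none of their members passed edgeR's test. Over all genes 33.5% were above and 26.6% below. Genes of the colony-stimulating factor receptor and SOCS list were below in 7 of 15 and above in 2. With total counts 5 were below and 4 above, and the median turned from -0.18 to 0.10. Csf2rb, the common beta chain of the GM-CSF and interleukin 5 receptors, was at 982 and 1153 CPM in H2R-deficient libraries and 1673 and 1842 CPM in wild type (-0.72 ± 0.21). Granulocyte transcription factors were below in 10 of 22 and above in 4. With total counts 6 were below and 4 above, and their median moved from -0.28 to -0.02. Irf8, which favours monocytes, dendritic cells and B cells over neutrophils, was at 36.6 and 52.8 CPM against 29.7 and 16.1 (0.97 ± 0.33). In the eicosanoid list 4 of 15 were below, the share of all genes, and 2 above, and with total counts 4 and 5. Those below include Alox5 (49.2 and 55.3 CPM against 87.3 and 121) and its partner Alox5ap (336 and 511 against 601 and 977), which make leukotrienes.

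Over the BCL2 family 5 of 16 genes were above and 4 below, near the shares of all genes, and with total counts 9 and 2. The anti-apoptotic Mcl1 was at 1583 and 2017 CPM against 2348 and 2865 (-0.53 ± 0.23), the pro-apoptotic Bcl2l11 at 382 and 431 CPM against 565 and 669 (-0.60 ± 0.20), and Bax at 92.9 and 75.2 CPM against 65.3 and 54.9 (0.48 ± 0.24). Lysosome and proton pump genes were below in 15 of 35 and above in 6, and with total counts below in 6 and above in 16, where the median turned from -0.11 to 0.16. The coagulation factor gene F5 was at 33.1 and 51.3 CPM against 76.3 and 167 (-1.53 ± 0.44). Hmox1, the haem oxygenase, was at 553 and 355 CPM against 320 and 333 (0.48 ± 0.26), and the light ferritin gene Ftl1 at 4918 and 3921 CPM against 3447 and 3388 (0.37 ± 0.20).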
